A study of Mus musculus with 4 samples.

Results

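The mammalian clock represses itself through the period proteins PER1, PER2 and PER3 and the cryptochromes CRY1 and CRY2, and the life of these proteins is set by kinases and ubiquitin ligases. The 9 genes described here are 5 repressor genes (*Per1*, *Per2*, *Per3*, *Cry1* and *Cry2*) and 4 genes of their regulators or partners (*Csnk1d*, *Csnk1e*, *Btrc* and *Timeless*). They were chosen by gene symbol, and each has 1 of the 17710 features that carry a symbol, among 19645 features in all. RNA was sequenced from 4 libraries of undifferentiated mouse embryonic stem cells (ESCs), which are pluripotent cells of the early embryo kept in culture with leukaemia inhibitory factor on gelatin. In total, 2 libraries came from wild-type (WT) ESCs and 2 from *Bmal1* knockout (KO) ESCs. All 4 were untreated and taken without a time series, so they give a level and not a rhythm. The KO was made with CRISPR-Cas9 and a guide against the exon of *Bmal1* that holds the start codon, and it is a single line grown from 1 colony. The study's methods call the libraries biological replicates, but their labels do not say which clones or dishes they came from, and the p-values below measure the spread between 2 libraries per genotype. A difference between genotypes and a difference between the 2 lines therefore cannot be told apart.

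BMAL1, whose gene is listed as *Arntl*, pairs with CLOCK and binds E-boxes in the promoters of *Per* and *Cry* genes, and the PER and CRY proteins return to the nucleus to repress that pair. Casein kinase 1 delta and epsilon, the products of *Csnk1d* and *Csnk1e*, phosphorylate PER proteins, and the F-box protein beta-TrCP, the product of *Btrc*, binds phosphorylated PER and passes it to ubiquitination. *Timeless* is the mammalian gene named after a fly clock gene, and its protein travels with the replication fork together with TIPIN, besides reported contacts with the PER and CRY proteins. In ESCs the circadian oscillation is not yet established, although many of its component genes are transcribed. The comparison asks what levels these genes have in ESCs and whether they differ when BMAL1 is lost.

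Expression was measured as FPKM (fragments scaled to transcript length and to the number of mapped reads), a unit per length that allows different genes to be compared. The depth of each library is unknown because FPKM keeps no read numbers. The median FPKM over features was similar in the 4 libraries, between 2.32 and 2.46, whereas features without a symbol took 26.8% and 37.3% of the summed FPKM in WT and 19.0% and 18.1% in KO. The targeted gene did not differ at the RNA level: *Arntl* had 6.05 and 6.29 FPKM in WT and 5.95 and 5.92 in KO (log2 fold change −0.06, SE 0.10, adjusted p = 0.750), so the transcript level does not check the labels of a frameshift. The genotypes also differed at a Y-linked gene that was not targeted, *Ddx3y*, with 0.235 and 0.403 FPKM in WT and 16.4 and 20.6 in KO (log2 fold change 5.49, adjusted p = 0.00115). It was singled out after its values were seen, and the part that this difference between the lines plays in the results below was not tested. Of 9 ESC markers, 9 were present in every library, with summed levels of 6000 to 6540 FPKM. *Dppa5a* (2880 to 3050 FPKM) and *Pou5f1* (1390 to 1620) made up most of that sum. *Klf4* had 58.4 and 55.0 FPKM in WT and 41.3 and 40.9 in KO (log2 fold change −0.46, adjusted p = 0.0177 in limma). *Tdgf1* was lower in KO as well (−0.36, adjusted p = 0.0322 in limma), and the other ESC markers did not pass 0.05. Of these, *Nanog*, *Sox2* and *Zfp42* were lower and *Esrrb* higher in both KO libraries. Fibroblast markers had a feature for 6 of 8 genes and summed to 1.97 to 3.22 FPKM, with 5 of the 6 below 0.5 FPKM in all libraries. The liver markers had a feature for 1 of 3 genes, at 0.118 to 0.271 FPKM. The 4 neural progenitor markers summed to 1.80 and 2.26 FPKM in WT and 9.22 and 9.97 in KO.

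In the mouse genome build GRCm38, *Per1* lies on chromosome 11 (69095146 to 69109957, plus strand), *Per2* on chromosome 1 (91415982 to 91459328, minus strand) and *Per3* on chromosome 4 (151003655 to 151044695, minus strand). *Cry1* lies on chromosome 10 (85131700 to 85185054, minus strand) and *Cry2* on chromosome 2 (92403647 to 92434069, minus strand). *Csnk1d* lies on chromosome 11 (120961741 to 120991333, minus strand), *Csnk1e* on chromosome 15 (79417852 to 79442060, minus strand) and *Btrc* on chromosome 19 (45363734 to 45533343, plus strand). The feature that holds *Timeless* spans chromosome 10 from 128225760 to 128252941, whereas the annotated gene starts at 128232065. This feature is merged with *Mip*, a gene of the lens, and its value covers both genes.

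The promoters are shown because BMAL1 binds DNA at the E-box CACGTG and at its variant with 1 changed base, the E'-box. RefSeq gives windows from 250 bases before to 50 bases after a transcript start for 6 of the 9 genes (*Per1*, *Per3*, *Cry1*, *Cry2*, *Csnk1e* and *Timeless*), 10 windows in all, on GRCm38.p6. The E-box CACGTG, which reads the same on both strands, was in 7.15% of all 32851 mouse windows of this length, and the E'-box (CACGTT or AACGTG) in 4.68%. The D-box (TTATGTAA or TTACATAA), a motif bound by DBP and TEF, was in 0.94% of windows. The cAMP response element (TGACGTCA) was in 1.79% of windows and in 0 of the 10 shown by these genes. The 250 bases before the start are given 5′ to 3′ for 4 repressor genes, with the motif letters in capitals; they are chr11:69098699-69098948 (plus strand) for *Per1*, chr4:151044666-151044915 (minus strand) for *Per3*, chr10:85185055-85185304 (minus strand) for *Cry1* and chr2:92434070-92434319 (minus strand) for *Cry2*.
Per1: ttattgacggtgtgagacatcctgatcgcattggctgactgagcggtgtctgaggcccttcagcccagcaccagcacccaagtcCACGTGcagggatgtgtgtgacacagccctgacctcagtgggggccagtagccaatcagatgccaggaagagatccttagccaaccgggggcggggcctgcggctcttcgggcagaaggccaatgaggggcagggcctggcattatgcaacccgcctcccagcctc
Per3: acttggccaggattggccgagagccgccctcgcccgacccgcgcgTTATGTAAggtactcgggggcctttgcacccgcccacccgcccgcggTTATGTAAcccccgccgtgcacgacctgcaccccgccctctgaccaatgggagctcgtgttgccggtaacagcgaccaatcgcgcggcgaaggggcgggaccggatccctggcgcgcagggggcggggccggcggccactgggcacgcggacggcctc
Cry1: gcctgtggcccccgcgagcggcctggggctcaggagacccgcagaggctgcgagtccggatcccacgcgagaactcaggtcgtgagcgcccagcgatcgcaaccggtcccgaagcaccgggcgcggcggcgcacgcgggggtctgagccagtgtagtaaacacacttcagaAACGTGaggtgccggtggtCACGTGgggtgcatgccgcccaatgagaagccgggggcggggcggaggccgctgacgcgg
Cry2: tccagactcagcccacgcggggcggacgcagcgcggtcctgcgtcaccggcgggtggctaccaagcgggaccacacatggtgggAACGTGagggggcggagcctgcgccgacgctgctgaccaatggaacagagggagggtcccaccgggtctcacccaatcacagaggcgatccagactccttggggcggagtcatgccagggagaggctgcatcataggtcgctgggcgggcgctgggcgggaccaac
*Per1* held an E-box that begins 166 bases before the start, in 1 of its windows, whose start lies 3732 bases inside the annotated gene. *Cry1* held both an E-box, 60 bases before the start, and an E'-box, 79 bases before it. *Cry2* held an E'-box 166 bases before its start and no E-box. *Per3* held 2 D-boxes, 205 and 158 bases before the start, and *Timeless* held 1, 157 bases before a transcript start at 128238066, which lies 6001 bases inside the annotated gene. The windows of *Cry1*, *Cry2* and *Per3* belong to starts close to the annotated 5′ end of each gene. A match describes these letters only and is not evidence of binding.

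The paralogs were compared because reads that match both copies could be split between them. When the coding sequences of *Csnk1d* (1245 bases) and *Csnk1e* (1248 bases) were aligned, the identical bases came to 76.1% of the length of the shorter. For *Cry1* and *Cry2* this share was 67.8%. The longest run shared by both kinase genes was 23 bases, ttcgactggaacatgctcaaatt, at coding positions 862 to 884 of each, and that of the cryptochromes was 21 bases, tggatgtggctgtcctgcagt. None of the pairs *Csnk1d* and *Csnk1e*, *Cry1* and *Cry2*, the 3 pairs of *Per* genes, and *Btrc* with its paralog *Fbxw11* shared a coding run of 25 bases. The coding sequences of these paralogs can therefore be told apart by reads longer than that.

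The transcripts of the kinases were the most abundant of the 9 and those of the *Per* genes were at the low end. *Csnk1d* had a mean of 40.0 FPKM over the 4 libraries (SD 1.05) and *Csnk1e* 38.5 (SD 4.19). The order of these 2 levels was not separated from their spread, since *Csnk1e* exceeded *Csnk1d* in KO replicate 1. *Timeless* followed with 32.5 FPKM (SD 1.41). *Cry1*, at 19.1 FPKM (SD 0.561), was the most abundant repressor, and *Cry2* followed with 7.98 FPKM (SD 0.405). *Btrc* (5.27 FPKM, SD 0.211) and *Per1* (5.12, SD 0.982) overlapped, and *Per1* was above *Btrc* in both KO libraries and below it in both WT libraries. *Per3* was low, at 1.24 FPKM (SD 0.198), and *Per2* was the lowest, at 0.287 (SD 0.111). The other neighbours in this order did not overlap over the 4 libraries. The highest mean was 139-fold the lowest.

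**Figure D1:**
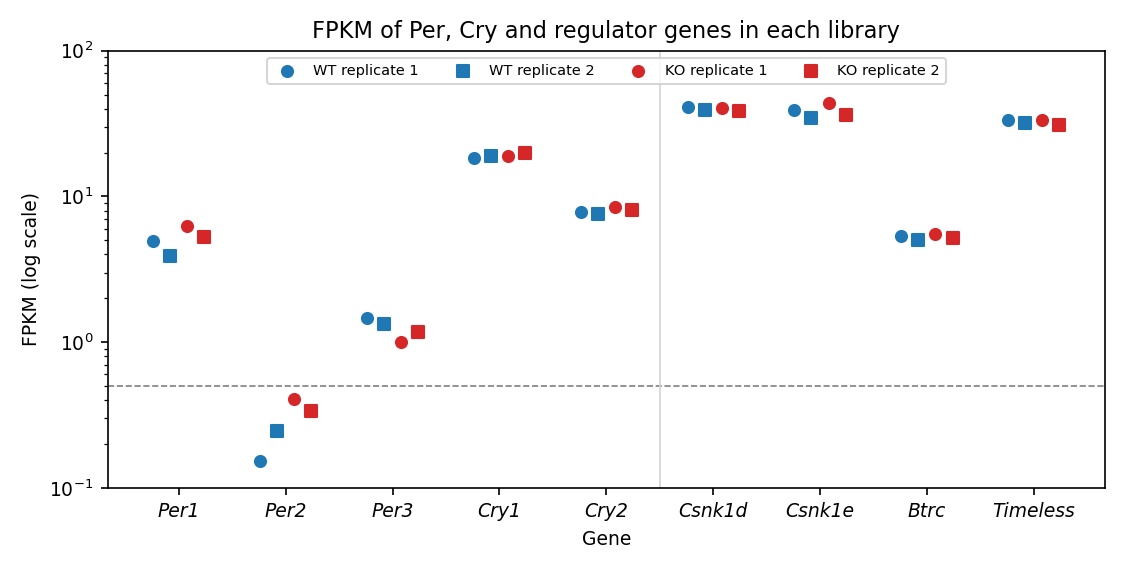
FPKM of the 9 genes in each of the 4 libraries, with genes on the horizontal axis and FPKM on a logarithmic vertical axis, 1 point per WT or KO library and a dashed line at the minimum of 0.5 for a test. The genes spread from *Per2*, at 0.154 to 0.409 FPKM, to *Csnk1d*, at 38.8 to 41.0, and for most genes the points of both genotypes lie close together.

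Placed among all features with a symbol of the same library, *Csnk1d* stood at percentiles 86.5 to 87.3 and *Cry1* at 76.4 to 77.7. *Per1* stood at percentiles 52.6 to 58.8 and *Per2* at 25.3 to 31.0. The genes also differed in how steady they were over the libraries. The coefficient of variation over the 4 libraries was 2.64% for *Csnk1d* and 2.95% for *Cry1*, against 19.2% for *Per1*, 16.0% for *Per3* and 38.6% for *Per2*. The wider spread of the *Per* genes includes the difference between the genotypes given below.

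Loss of BMAL1 went with small differences in this set of genes, and none was called. KO was compared with WT in limma on log2(FPKM + 0.1), over the 12990 features whose mean was 0.5 FPKM or more, and each adjusted p below is from this test with Benjamini-Hochberg adjustment over all of them. Calls required both an adjusted p under 0.05 and more than a 2-fold change, which 4.14% of tested features met, and 12.5% had an adjusted p under 0.05 whatever the size, 6.85% higher and 5.60% lower in KO. Of the 9 genes, 8 were tested and *Per2* was left out for its low level. Of the 8, 0 were called and 0 had an adjusted p under 0.05 in limma, and 0 had an unadjusted p under 0.05. The mean was higher in KO for 5 of the 8 and lower for 3. The 2 KO values exceeded both WT values for 2 of the 8 (*Per1* and *Cry2*) and were below them for 1 (*Per3*), against 27.0% and 31.7% of all tested features. The median log2 fold change was 0.05 over the 8 genes and −0.02 over all tested features, and the median absolute log2 fold change was 0.08 against 0.19. For 8 of 8 the 95% interval of the fold change lay within a 2-fold change in either direction, which bounds the differences without showing that they are 0. In 6 of the genes replicate 1 was above replicate 2 in both genotypes.

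*Per1*, the light- and hormone-responsive period gene, differed most among those tested. It had 4.98 and 3.92 FPKM in WT and 6.31 and 5.26 in KO, so both KO libraries were above both WT libraries, by a gap smaller than the distance between the replicates. The means were 4.45 ± 0.749 (SD, n = 2 libraries) and 5.78 ± 0.747, a fold change of 1.30 (95% interval 0.980 to 1.71), with a log2 fold change of 0.37 (SE 0.16) and an adjusted p of 0.193 in limma. *Per2*, the period gene best known from clock mutants, had 0.154 and 0.247 FPKM in WT and 0.409 and 0.339 in KO. Its KO values were both higher than its WT values, but all 4 were under 0.5 FPKM, the minimum for a test. When features of any level were admitted, its log2 fold change was 0.67 (95% interval −0.05 to 1.39), with an adjusted p of 0.240 in limma. *Per3*, which is dispensable for the core rhythm, differed in the opposite direction. It had 1.46 and 1.33 FPKM in WT and 0.998 and 1.18 in KO, with both KO libraries below WT. Its fold change was 0.795 (95% interval 0.565 to 1.12; adjusted p = 0.327 in limma). The differences in the means of the 3 period genes thus did not share a direction, and each 95% interval included no change.

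The cryptochromes were steady. *Cry1*, whose protein is the stronger repressor of the CLOCK-BMAL1 pair, had 18.5 and 19.0 FPKM in WT and 18.9 and 19.8 in KO, and the groups overlapped. The fold change of *Cry1* was 1.03 (95% interval 0.898 to 1.19; adjusted p = 0.746 in limma). *Cry2* had 7.81 and 7.55 FPKM in WT and 8.50 and 8.04 in KO. Its KO values were both higher, but the fold change of 1.08 (95% interval 0.912 to 1.27) had an adjusted p of 0.516 in limma. *Cry1* holds both an E-box and an E'-box in the window shown above, *Cry2* an E'-box and *Per1* an E-box, and none of the 3 passed the test. Whether BMAL1 acts on them through these motifs was not tested.

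The kinase genes did not separate by genotype. *Csnk1d* had 41.0 and 39.4 FPKM in WT and 40.7 and 38.8 in KO (fold change 0.989, 95% interval 0.868 to 1.13, adjusted p = 0.905 in limma). For *Csnk1e* the values were 39.3 and 34.5 FPKM in WT and 44.0 and 36.1 in KO. Replicate 1 of *Csnk1e* was above replicate 2 in both genotypes, and that distance exceeded the difference between the means of 36.9 ± 3.44 and 40.0 ± 5.57 FPKM (SD, n = 2). Its fold change was 1.08 (95% interval 0.877 to 1.33; adjusted p = 0.585 in limma).

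*Btrc* and *Timeless* overlapped between genotypes as well. *Btrc* had 5.34 and 5.02 FPKM in WT and 5.52 and 5.19 in KO (fold change 1.03, 95% interval 0.856 to 1.25, adjusted p = 0.808 in limma). The feature of *Timeless* and *Mip* had 33.7 and 31.7 FPKM in WT and 33.6 and 30.9 in KO (fold change 0.986, 95% interval 0.853 to 1.14, adjusted p = 0.896 in limma). The direction of the smallest differences, those of *Csnk1d* and *Timeless*, turned when FPKM were rescaled to the sum over features with a symbol, and that of *Csnk1e* turned without KO replicate 1 (log2 fold change −0.03).

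**Figure D2:**
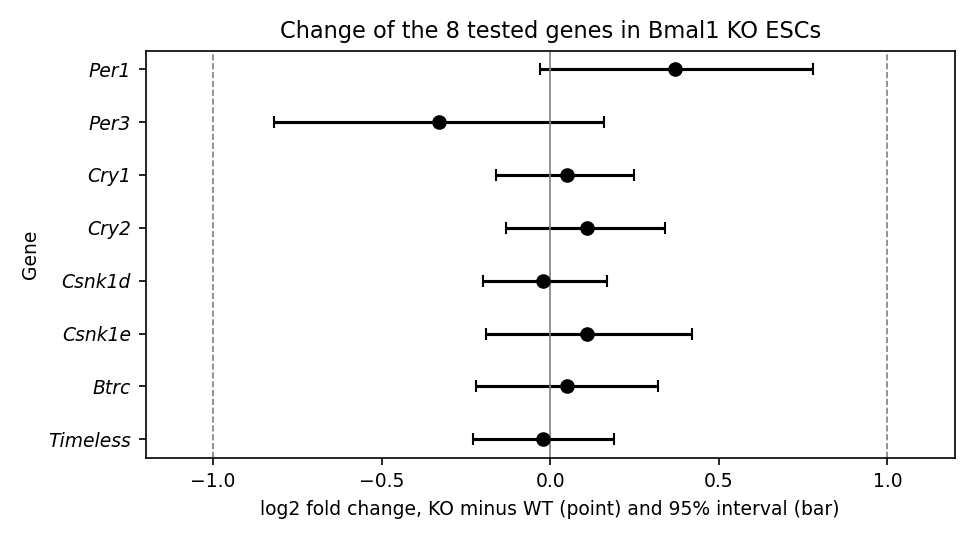
Log2 fold change of KO against WT on log2(FPKM + 0.1) for the 8 tested genes, with 95% intervals from limma as horizontal bars and dashed lines at a 2-fold change. All 8 intervals cross 0 and lie inside the dashed lines, with *Per1* farthest to the right at 0.37 and *Per3* farthest to the left at −0.33.

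Ratios within a library do not depend on how that library was scaled. The 5 repressor genes summed to 32.9 and 32.1 FPKM in WT and 35.1 and 34.6 in KO, and the 4 regulators to 119 and 111 in WT and 124 and 111 in KO. The repressor sum was higher in both KO libraries, and the regulator sum overlapped. The ratio of repressors to regulators was 0.276 and 0.290 in WT and 0.284 and 0.312 in KO, a mean of 0.283 ± 0.0101 (SD, n = 2) against 0.298 ± 0.0203, and the genotypes overlapped. Transcripts of the 4 regulators thus outnumbered those of the 5 repressors in every library on the per-length scale. The ratios are given as a description with no test. An exact two-sided permutation test of 2 libraries against 2 cannot give a p below 0.333.

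The make-up of the repressors was dominated by the cryptochromes, and the period genes were mostly *Per1*. *Cry1* and *Cry2* together made up 80.0% and 82.9% of the summed repressor FPKM in WT and 78.0% and 80.5% in KO. Within the period genes, *Per1* made up 75.6% and 71.4% in WT and 81.8% and 77.6% in KO, a higher share in both KO libraries. The ratio of *Per1* to *Per3* was 3.42 and 2.96 in WT and 6.33 and 4.46 in KO. Its means were 3.19 ± 0.326 and 5.39 ± 1.32 (SD, n = 2). The lack of overlap follows from *Per1* being higher and *Per3* lower in both KO libraries, as given above. It is no separate result, and this ratio was not among those planned. The paralog ratios overlapped between genotypes. *Cry1* to *Cry2* was 2.37 and 2.52 in WT and 2.22 and 2.47 in KO, and *Csnk1d* to *Csnk1e* was 1.04 and 1.14 in WT and 0.926 and 1.07 in KO. The 2 kinase genes together were 12.2- and 13.4-fold the summed period genes in WT and 11.0- and 11.0-fold in KO. This ratio was lower in both KO libraries. It and the share of *Per1* within the period genes were not planned either. Both include *Per1*, so neither is a separate result.

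**Figure D3:**
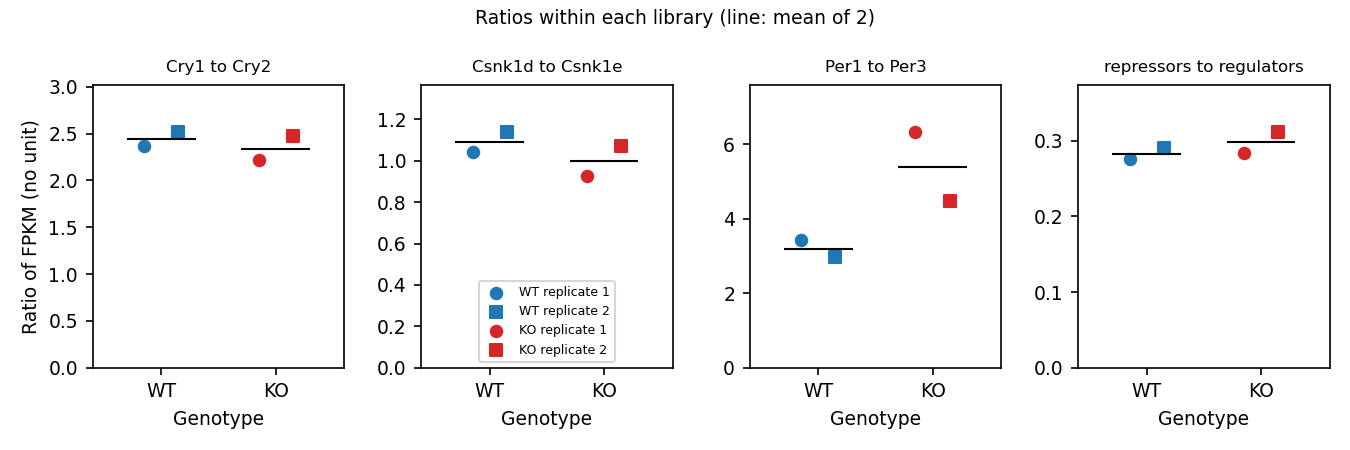
Ratios of FPKM within each library, 1 panel per ratio, with genotype on the horizontal axis 1 point per library and a line at the mean of the 2. The points of WT and KO overlap for the ratio of repressors to regulators (0.276 to 0.312) and for both paralog ratios, *Cry1* to *Cry2* and *Csnk1d* to *Csnk1e*. They do not overlap for *Per1* to *Per3*, which follows from the opposite differences of these genes.

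Other genes that act on the stability of PER and CRY had 0 features with an adjusted p under 0.05 in limma, a count that was not 0 in the fit with a replicate block given at the end. The list of PER kinases and phosphatases has 16 genes, the casein kinases included. All 16 were tested, and 0 rose and 0 fell at an adjusted p under 0.05 in limma, with a median log2 fold change of −0.04 and a range of −0.30 to 0.21. Over all tested features 6.85% rose and 5.60% fell at that threshold, so few of 16 would pass at those shares. The most abundant were phosphatase subunits. *Ppp1ca*, a catalytic subunit of protein phosphatase 1, had 336 and 333 FPKM in WT and 321 and 305 in KO (log2 fold change −0.09, adjusted p = 0.430 in limma). *Ppp2ca*, the catalytic subunit of protein phosphatase 2A, had 193 and 211 FPKM in WT and 183 and 194 in KO (log2 fold change −0.10, adjusted p = 0.462 in limma).

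Of 12 genes for ubiquitin ligases and deubiquitinases of PER and CRY, *Btrc* included, 11 were tested, and 0 rose and 0 fell at an adjusted p under 0.05 in limma. The shares over all tested features were 6.85% and 5.60%, at which few of 11 would pass. The median log2 fold change of the 11 was 0.02, with a range of −0.26 to 0.77. *Ddb1*, an adaptor of the CUL4 ligases, had 241 and 221 FPKM in WT and 230 and 209 in KO (log2 fold change −0.07, adjusted p = 0.613 in limma). *Skp1a*, the adaptor that joins F-box proteins to CUL1, had 188 and 225 FPKM in WT and 206 and 230 in KO (log2 fold change 0.08, adjusted p = 0.673 in limma). The following 2 genes were singled out after their values were seen. *Fbxw11*, the paralog of *Btrc*, was at 21.5 and 21.2 FPKM in WT and 21.5 and 21.4 in KO, above *Btrc* in every library. *Usp2*, a deubiquitinase reported to act on PER1 and CRY1, had 0.890 and 0.844 FPKM in WT and 1.76 and 1.37 in KO. The log2 fold change of *Usp2*, 0.77 (SE 0.22), was the upper end of the list, with an adjusted p of 0.0748 in limma.

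Genes of the wider clock pathway that passed the test were found among other repressors and output factors. Among 7 other repressors and partners of the PER-CRY complex, 6 were tested, 2 rose and 0 fell at an adjusted p under 0.05 in limma. Over all tested features 6.85% rose and 5.60% fell at that threshold. The gene left out for its low level, *Bhlhe41*, had 0.0143 and 0.00794 FPKM in WT and 0.219 and 0.257 in KO. When features of any level were admitted, its adjusted p was 0.0306 in limma. It was singled out after its values were seen. *Bhlhe40*, also called DEC1, a repressor that competes at E-boxes, had 2.62 and 2.79 FPKM in WT and 12.2 and 10.0 in KO (log2 fold change 1.99, SE 0.13, adjusted p = 0.00226 in limma). *Id2*, which sequesters helix-loop-helix factors, had 6.69 and 7.60 FPKM in WT and 18.1 and 21.4 in KO (log2 fold change 1.45, SE 0.12, adjusted p = 0.00410 in limma). The KO values of *Bhlhe40* and *Id2* lay far above those of WT, and the median of the list was −0.11, against −0.02 over all tested features. *Id2* is also a gene of early differentiation, and the neural markers *Pax6* (0.466 and 0.859 FPKM in WT, 2.28 and 2.36 in KO) and *Sox1* (1.32 and 1.38 in WT, 6.91 and 7.61 in KO) were higher in the same libraries. The other 2 neural markers were below 0.5 FPKM in every library. The part of such cells in these results was not tested.

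Among 13 genes of the activators and the nuclear receptor loop, 8 were tested, 2 rose and 0 fell at an adjusted p under 0.05 in limma. The shares over all tested features were 6.85% and 5.60%. The median log2 fold change was 0.20, against −0.02 over all tested features. *Dbp*, a D-box activator and a classical output of the clock, had 1.65 and 1.50 FPKM in WT and 4.40 and 4.17 in KO (log2 fold change 1.39, SE 0.14, adjusted p = 0.00576 in limma). *Tef*, of the same family, had 4.16 and 3.57 FPKM in WT and 6.92 and 6.51 in KO (log2 fold change 0.78, SE 0.13, adjusted p = 0.0174 in limma). *Per3* and the merged feature of *Timeless*, whose windows hold D-boxes, did not pass the test (log2 fold changes −0.33 and −0.02). Whether DBP or TEF acts on these genes was not tested.

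The replication fork list holds genes of the fork with which TIMELESS travels, most of them general replication genes. All 23 genes were tested, 4 fell and 0 rose at an adjusted p under 0.05 in limma, and 0 were past 2-fold. Over all tested features 5.60% fell and 6.85% rose at that threshold. The log2 fold change was below 0 for 20 of the 23, against 53.2% of all tested features, with a median of −0.09 and a range of −0.52 to 0.16. When FPKM were rescaled to the sum over features with a symbol, 14 of the 23 were below 0 and 2 fell. The median was then −0.02 for the list and 0.05 over all features, against −0.09 and −0.02 without rescaling. *Gins2*, a subunit of the GINS complex of the replicative helicase, had 109 and 108 FPKM in WT and 75.4 and 75.5 in KO (log2 fold change −0.52, SE 0.07, adjusted p = 0.00994 in limma). *Gins3*, of the same complex, had 12.1 and 13.0 FPKM in WT and 9.08 and 9.59 in KO (log2 fold change −0.42, adjusted p = 0.0433 in limma). The other subunits of this complex did not pass, *Gins1* at −0.09 and *Gins4* at −0.01. Of the subunits of the single-strand binding protein RPA, *Rpa1* had 121 and 124 FPKM in WT and 91.4 and 94.4 in KO (log2 fold change −0.40, adjusted p = 0.0216 in limma). *Rpa2* had 79.4 and 80.3 FPKM in WT and 62.8 and 62.1 in KO (log2 fold change −0.35, adjusted p = 0.0286 in limma). *Rpa3*, the remaining subunit, had 125 and 144 FPKM in WT and 124 and 139 in KO (log2 fold change −0.04, adjusted p = 0.843 in limma). *Tipin*, the direct partner of *Timeless*, was picked for that role after the values were seen and had 136 and 162 FPKM in WT and 122 and 139 in KO (log2 fold change −0.19, adjusted p = 0.320 in limma).

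**Figure D4:**
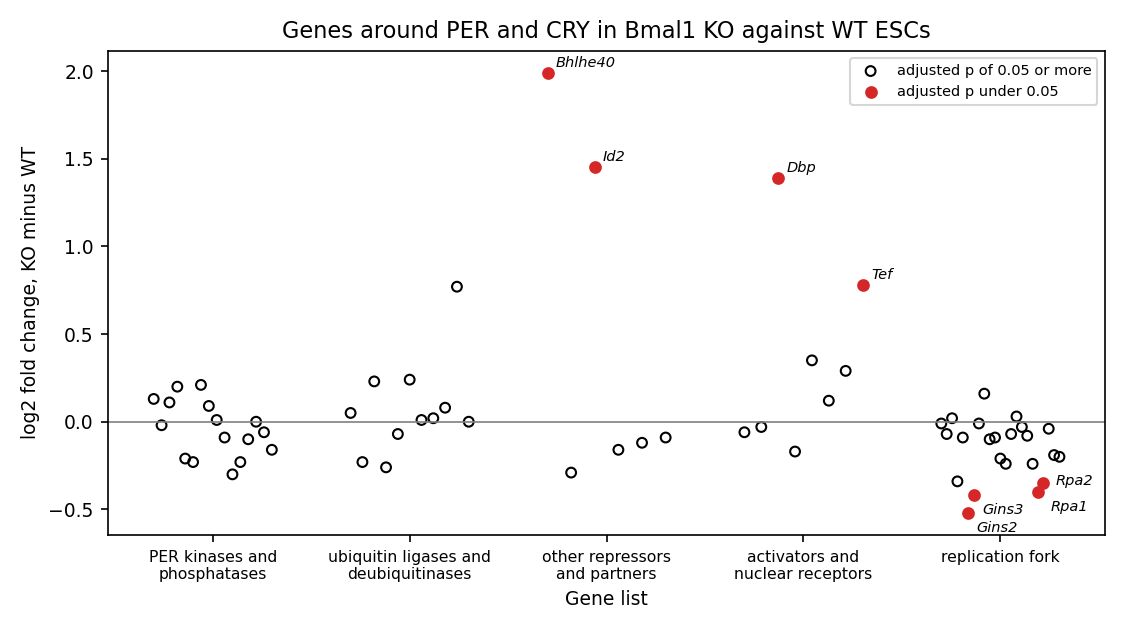
Log2 fold change of KO against WT on log2(FPKM + 0.1) for every tested gene of the 5 pathway lists, on the vertical axis, with the lists along the horizontal axis, 1 point per gene, and genes at an adjusted p under 0.05 in limma filled and named. *Bhlhe40* (1.99), *Id2* (1.45), *Dbp* (1.39) and *Tef* (0.78) lie at the top, *Gins2* (−0.52), *Gins3*, *Rpa1* and *Rpa2* at the bottom, and the lists of kinases and of ubiquitin ligases have no filled point.

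*Per1* had the largest absolute log2 fold change of the tested genes, so the features with the most similar pattern were sought for it. Likeness was the Euclidean distance between the 4 centred log2 values, over 11943 tested features with a symbol. The nearest was *Cdc25b*, a phosphatase that activates cyclin-dependent kinases, at a distance of 0.023 (10.2 and 8.15 FPKM in WT, 12.8 and 10.7 in KO). *Zfp628* followed at 0.031 and *Btbd2* at 0.032. With 4 points from shared libraries this is a description of likeness alone.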

How the data were processed

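RNA of WT and *Bmal1* KO mouse ESCs (2 libraries each) was isolated with Trizol and depleted of ribosomal RNA. Per the study's methods, reads were aligned to GRCm38 (mm10) with TopHat 2.1.1 and Bowtie2 2.3.0, guided by known transcripts, and the authors estimated FPKM per gene with Cufflinks 2.2.1. These deposited FPKM values were the starting point. No read numbers can be recovered from them, so precision was judged from the spread between replicates (median SD 0.116 on the log2 scale).

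FPKM were compared as log2(FPKM + 0.1) with limma 3.58.1 under R 4.3.3, with a trend in the variance and Benjamini-Hochberg adjustment, for features with a mean of at least 0.5. Called features had an adjusted p under 0.05 and a change above 2-fold. The fit was tested on simulated data with known changes. Feature starts are 0-based in the files, and 1 was added. Gene identities came from GENCODE M21, and promoter windows from RefSeq. Sequences were compared with biopython 1.88, figures drawn with matplotlib 3.10.9, and tables handled in Python 3.11.15.

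The genes and lists were chosen with earlier results of these data known. Named were all 9 genes and *Arntl*. From each list the 4 genes with the largest change among those at an adjusted p under 0.05 were named, or otherwise the 2 most abundant. The 3 features nearest to the most changed gene were named too. Alternatives were the pseudocount, the filter, the scaling, the variance trend, a replicate block and leaving out each library.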

Additional observations from a re-analysis of the deposited data

How the results depend on the processing

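The number of called features, 538, was 231 with a pseudocount of 1 and 605 to 820 when 1 library was left out (820 without WT replicate 1), where the lone library of its genotype is assumed to vary like the others. The features with an adjusted p under 0.05, 1618, numbered 951 with no filter on low values, 4052 with the replicate block and 1364 to 2032 without 1 library. With the replicate block, 1 of the 8 tested genes passed, *Per1* (adjusted p = 0.0332 in limma, against 0.193), and 0 passed without any 1 library. Over all features, 4052 of the 12990 tested passed with the block, and counts in the lists are to be read against that share. With the block, the list of 16 kinases and phosphatases had 1 higher and 4 lower. The 11 tested ligases and deubiquitinases had 2 and 2, the 6 tested other repressors 2 and 2, and the 23 fork genes 1 and 10. Nothing in the labels ties replicate 1 of WT to that of KO. Over features, the difference between replicates 1 and 2 in WT and in KO was correlated at 0.071 (Pearson's r) and 0.387 (Spearman's rho), so whether the numbers pair the libraries was not settled. The log2 fold change of *Per1* ranged from 0.21 to 0.54 over 14 alternatives (adjusted p 0.0332 to 0.587 in limma) and that of *Per3* from −0.44 to −0.20.

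Small differences turned. With FPKM rescaled to the sum over features with a symbol, which moved the median of all features from −0.02 to 0.05, *Csnk1d* was 0.06, *Timeless* 0.05 and *Arntl* 0.02. Leaving out 1 library gave −0.05 to 0.02 for *Csnk1d*, −0.08 to 0.04 for *Timeless*, −0.03 to 0.26 for *Csnk1e* and −0.05 to 0.21 for *Skp1a*. Quantile normalization gave 0.00 for *Ppp1ca* and 0.01 for *Ddb1*. Rescaling divides all features of a library by the same factor, so genes well above the pseudocount shift by a similar amount. The cause of the other turns was not tested. Of 112 values for the 8 genes, 104 kept direction and call, 7 turned and 1 was newly past the threshold. *Bhlhe40*, *Id2*, *Dbp*, *Tef* and *Gins2* passed in 14 of 14 alternatives, *Rpa1* in 11 and *Rpa2* and *Gins3* in 8. The ratio of repressors to regulators differed by 0.07 on the log2 scale (SD 0.08), by 0.00 to 0.14 without 1 library, by 0.06 without *Timeless* and by 0.15 without *Cry1*, both chosen after seeing the data.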

Other observations

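The nearest tested feature with a symbol on each side of the 9 genes was read from the same limma fit, a choice made after the data were seen. These neighbours lay 2337 to 307350 bases away, and untested features or features without a symbol can lie between. Of 18 neighbours, 4 had an adjusted p under 0.05, of which 1 was higher in KO, against 12.5% of all tested features. *Hes6*, a regulator of neural differentiation 2758 bases from *Per2*, had 5.76 and 4.96 FPKM in WT and 14.9 and 10.5 in KO (log2 fold change 1.21, SE 0.19, adjusted p = 0.0154). *Slc16a3*, a lactate transporter 2740 bases from *Csnk1d*, had 27.3 and 25.1 FPKM in WT and 15.9 and 11.6 in KO (log2 fold change −0.94, SE 0.16, adjusted p = 0.0198), whereas *Csnk1d* itself overlapped between genotypes. On the other side of *Csnk1d*, 154809 bases away, *Tex19.1*, a germ cell and ESC gene, had 33.1 and 29.0 FPKM in WT and 18.0 and 17.4 in KO (log2 fold change −0.80, adjusted p = 0.00789 in limma). *Gls2*, a glutaminase, lies 13965 bases before the merged feature of *Mip* and *Timeless*, and so farther from *Timeless* itself. It had 15.4 and 15.4 FPKM in WT and 10.2 and 10.3 in KO (log2 fold change −0.58, SE 0.08, adjusted p = 0.0132 in limma).

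Around *Per1* and *Per3*, the neighbours did not pass the test. *Vamp2*, 2760 bases from *Per1*, had 8.78 and 8.25 FPKM in WT and 12.8 and 9.73 in KO (log2 fold change 0.39, adjusted p = 0.149 in limma). On the other side *Cntrob*, 189454 bases away, overlapped, with 12.2 and 12.1 FPKM in WT and 13.7 and 11.8 in KO. *Vamp3*, 2609 bases from *Per3*, had 32.0 and 35.2 FPKM in WT and 27.2 and 27.4 in KO (log2 fold change −0.29, adjusted p = 0.0787 in limma). *Park7*, 93733 bases away on the other side, had 476 and 517 FPKM in WT and 462 and 466 in KO (log2 fold change −0.10, adjusted p = 0.459 in limma). Over all tested features, both KO values were above WT in 27.0% and below WT in 31.7%.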
